A study of Mus musculus with 15 samples.

Results

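Ion channels and transmitter receptors were followed in brain RNA of mice that carry the O377 allele of Crybb2, the gene of the lens protein beta-B2 crystallin. Probes were chosen by name: the single symbol in the platform's annotation, with old aliases updated, had to begin with the letters of a channel or receptor family (Kcn, Scn, Cacn, Hcn, Clcn, Trpc, Trpm, Trpv, Gria, Grin, Grik, Grm, Gabr, Gabbr, Glr, Chrn, Chrm, Htr, Drd or Adra). These letters took 97 probes of 81 genes. A probe was kept if, in each dye orientation, 4 or more arrays gave it a value, which left 41 probes of 37 genes among the 8058 probes tested and the 20205 on the array. The rule itself uses names and the number of values, not the ratios. Of the 41 probes, 36 belong to 33 genes of channel or receptor proteins, their auxiliary subunits included. The other 5, of 4 genes, share only the letters: Glrx2 (2 probes) encodes a glutaredoxin, Grina a membrane protein named for its association with NMDA receptors, Htra1 a serine protease, and Kcnq1ot1 a noncoding RNA antisense to Kcnq1.

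Each of 15 two-colour arrays compared total RNA of homozygous O377 mutant brains, labelled as brains 1-5, with 1 pool of RNA from 4 wild-type (WT) brains. The mutant RNA carried the dye Cy5 on 7 arrays (1, 2, 5, 6, 9, 10 and 13) and Cy3 on 8 (3, 4, 7, 8, 11, 12, 14 and 15), with arrays numbered in accession order. Age, sex, strain and treatment are not stated in the labels. No label says which mutant brain lies on which array, so a p-value reflects how arrays vary, and that variation may be technical. The wild-type pool counts as 1 control sample, and its own spread is left out. The RNA came from whole brains, in which fewer cells of a type and less RNA per cell cannot be told apart.

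The deposited values are log ratios, taken here as log2, and their direction is not stated: each may set mutant against wild type, or one dye against the other. Both readings were therefore reported from 1 linear model. The dye-switching component is the part of the ratio that changes sign when the dyes are exchanged, and it is the genotype difference if the values run Cy5 over Cy3. The shared component is the part that keeps its sign, and it is the genotype difference if the values run mutant over wild type. A positive value stands for more signal in the mutant under these readings, and the sign turns if the ratio runs the other way, so no gene is called higher or lower in the mutant here.

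Voltage-gated channels open with the membrane potential and let sodium, calcium or potassium ions pass, which shapes the action potential, transmitter release and the return to rest. Ionotropic receptors are themselves ion channels that a transmitter opens, whereas metabotropic receptors act through G proteins. Most of these complexes join pore-forming subunits with auxiliary subunits that set where the channel sits and how it opens and closes.

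Arrays held 7843 to 10515 values each, and 34 (array 4) to 40 (array 7) of the 41 probes had a value on an array. The median over these probes ran from -0.12 on array 2 to 0.15 on array 13, and their interquartile range from 0.192 on array 2 to 0.919 on array 10, which also had the widest spread over all its probes (0.892). The probe of Crybb2 was measured on all 15 arrays, with a dye-switching component of -0.01 ± 0.07 (SE) and a shared component of -0.0007 ± 0.0745 (SE), adjusted p = 0.982 and 0.998. It compares the RNA signal of mutant and wild type, and says nothing of the absolute amount of RNA or of the altered allele. Of 12 neuron markers, 10 were on the array and 7 were tested. The neuronal surface protein gene Thy1 was the single gene past the threshold among all 40 genes tested from the marker lists. Over all tested probes 0.645% passed in that component. Thy1 had a dye-switching component of -0.53 ± 0.11 (SE, limma adjusted p = 0.0276). The 7 neuron markers as a list did not share this sign, with 5 positive, 2 negative and a median of 0.02. A log ratio holds no expression level, so these markers check the tissue only through the number of arrays with a value.

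None of the 41 probes passed the adjusted threshold of 0.05 in either component. In the dye-switching component 52 of all tested probes did so (0.645%), and in the shared component 0 did (0%). The unadjusted p was under 0.05 for 3 of 41 in the dye-switching component (7.32%, against 9.57% of all tested probes) and 5 of 41 in the shared component (12.2%, against 9.49% of all). The 3 were Trpm3 and Trpm2, both negative, and Grik5, positive. The 5 were Cacna1h, Gabbr1, Cacna1f and Scn3b, negative, and Kcnj14, positive. For every one of the 41 probes the values of the 2 dye orientations overlapped. This bears on the dye-switching component only, since a shared component is alike in both orientations. The share over all tested probes was not counted, so the overlap cannot be read as particular to these probes.

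The intervals limit how large a difference could be in these RNAs. Among the 36 channel and receptor probes, 33 had a 95% confidence interval within 1.5-fold either way in the dye-switching component (91.7%, against 89.7% of all tested probes), and 33 did in the shared component (91.7%, against 89.9%). The same 33 lay within 1.5-fold in both components, as did 6976 of all 8058 tested probes. Kcnn4, Grik5 and 1 of 2 probes of Chrna9 lay outside. Within 1.2-fold either way lay 19 of 36 in the dye-switching component (52.8%, against 44.1% of all tested probes) and 16 of 36 in the shared component (44.4%, against 42.7%). The interval whose bounds reached least far from 0 was that of Grm4 (-0.13 to 0.13) in the dye-switching component and that of the calcium channel subunit Cacnb2 (-0.15 to 0.15) in the shared component.

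**Figure D1:**
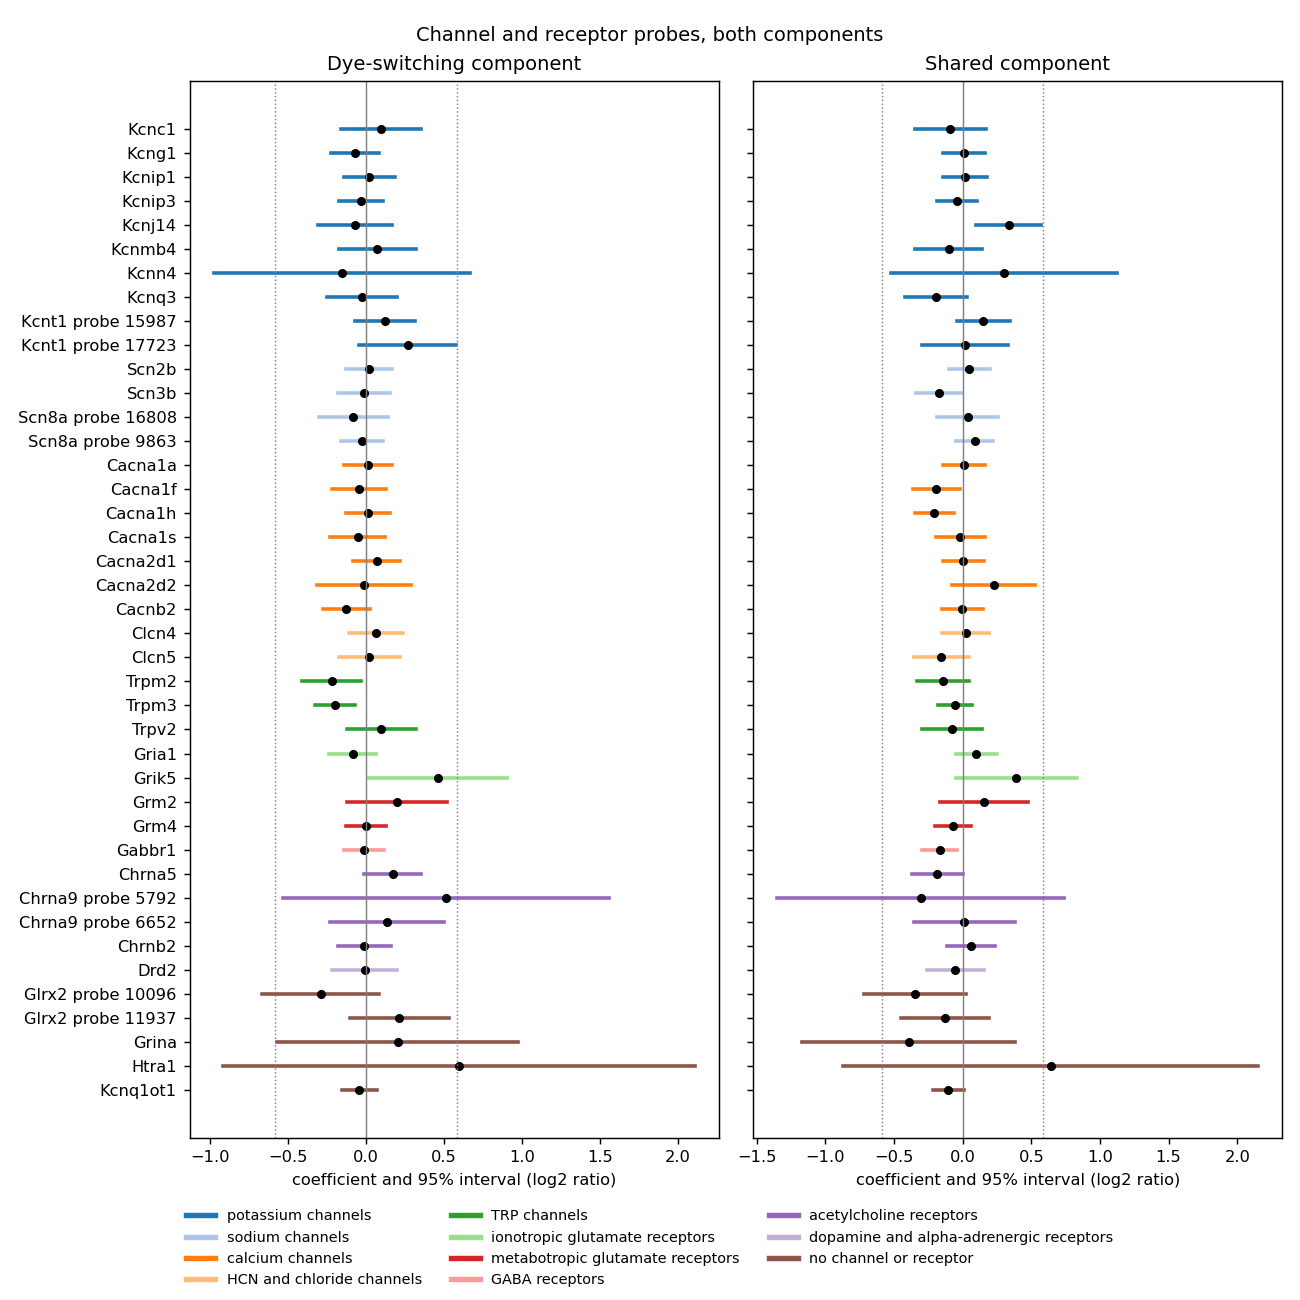
Coefficient (point) and 95% confidence interval (bar) of each of the 41 probes on the log2 ratio scale, in the dye-switching component (left) and the shared component (right), coloured by role. Dotted lines mark 1.5-fold either way (0.585 on the log2 scale); of the channel and receptor probes, bars of Kcnn4, Grik5 and Chrna9 probe 5792 cross them in both panels, and no probe passed the adjusted threshold.

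The signs were evenly divided. In the dye-switching component 21 of 41 probes were positive and 20 negative, with a median of 0.0014 (0.0073 over all tested probes). In the shared component 19 were positive and 22 negative, with a median of -0.02 (-0.0049 over all). The median size of the coefficient was 0.0723 in the dye-switching component (0.0795 over all tested probes) and 0.103 in the shared component (0.0839 over all). Spread between arrays was much the same, with a median residual SD of 0.340 for the 41 probes and 0.337 for all tested. Receptors (10 probes) had medians of 0.07 and -0.02 in the dye-switching and shared components, and channels (26 probes) -0.01 and 0.0013.

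**Figure D2:**
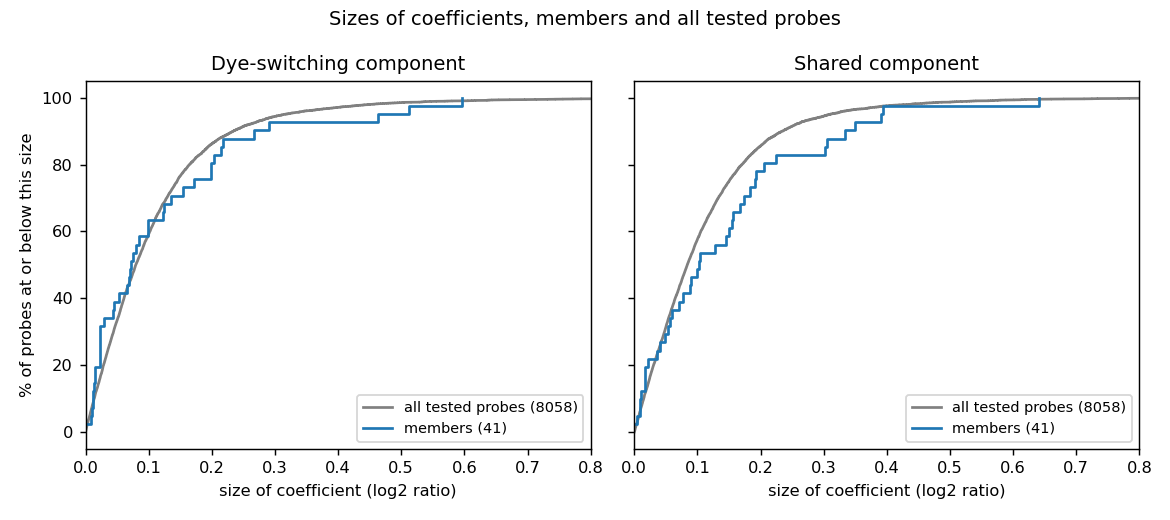
Cumulative share of probes (percent, vertical axis) by size of the coefficient (log2 ratio, horizontal axis), for the 41 probes (blue) and all 8058 tested probes (grey) in each component. The curves run close in the dye-switching component, and in the shared component the blue curve lies to the right over most of the range, with medians of 0.103 and 0.0839.

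The probes that passed the filter are counted here by role. Most roles hold few probes, and a difference between roles was not tested. Of the 97 probes, 41 passed the array filter (42.3%, against 40.7% of all probes with 1 symbol), 21 had a value on all 15 arrays and 18 on none. Potassium channels passed with 10 of 26 probes, calcium channels with 7 of 18, sodium channels with 4 of 6, hyperpolarization-activated and chloride channels with 2 of 6 and TRP channels with 3 of 8. Ionotropic glutamate receptors passed with 2 of 9 probes, metabotropic glutamate receptors with both, acetylcholine receptors with 4 of 6, and dopamine and adrenergic receptors with 1 of 2. The single probe of a GABA receptor, Gabbr1, passed, and the single probe of a serotonin receptor, Htr7, had no value on any array. No probe of a glycine receptor was found, because the letters Glr took only glutaredoxins.

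The 18 of 97 probes with no value on any array compare with 2336 of 11723 probes with 1 symbol. As examples chosen after the values were seen, they include Grin2b and Gria3, subunits of NMDA and AMPA receptors, Kcna1, a subunit of axonal potassium channels, and also Chrne, a subunit of the muscle acetylcholine receptor, and Cacnb1, a calcium channel subunit of skeletal muscle. Genes with values on all 15 arrays include Gria1, Kcnq3 and Chrnb2, known from neurons, and Cacna1s, the pore of the calcium channel of skeletal muscle. How spots were filtered before deposit is not stated, so a missing value does not show that a gene was silent.

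**Figure D3:**
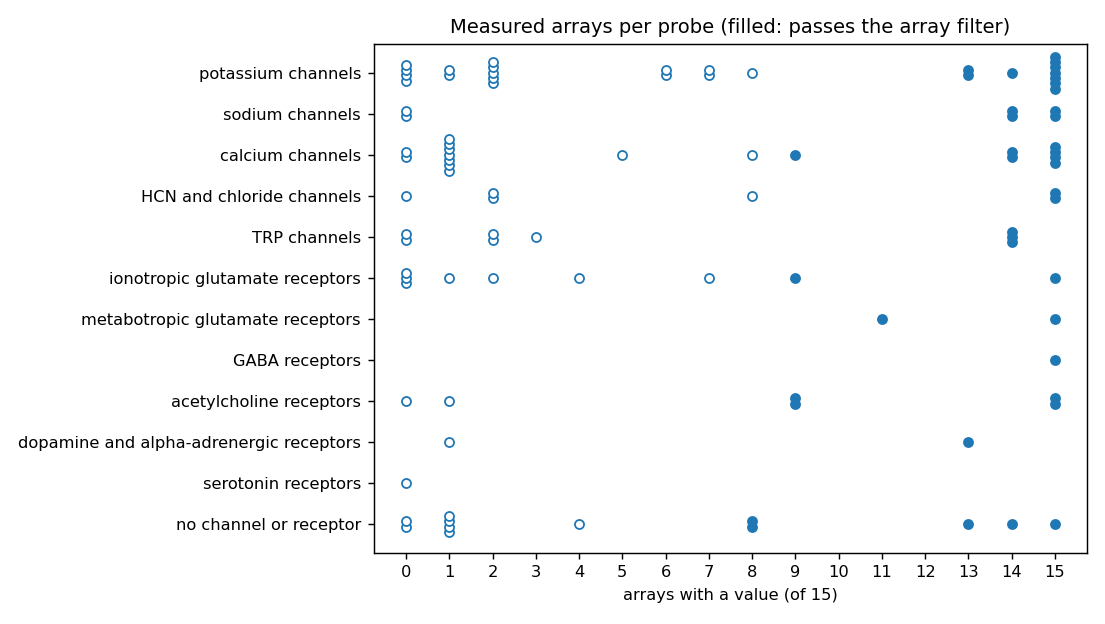
Number of arrays with a value (horizontal axis, of 15) for each of the 97 probes whose symbols begin with the family letters, by role; filled points passed the filter of 4 arrays of each dye orientation and open points did not. The 18 probes at 0 include Grin2b, Gria3 and Kcna1.

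Just inside the filter, at 4 arrays of each orientation, were Grina and Htra1. Just outside it were 7 probes with 3 or more arrays of each orientation. Clcn4 probe 16345 (5 arrays with mutant RNA in Cy5 and 3 in Cy3) had means of -1.29 and -0.28 in the 2 orientations, and Grin2d, an NMDA receptor subunit (4 and 3 arrays), had 0.22 and -1.70. Kcnip2 (5 and 3 arrays) had -1.03 and -0.33, and Kcnj12 (3 and 4 arrays) 0.02 and -0.96. Kcna6 (3 and 4 arrays) had 0.23 and 0.36, Kcnab2 (3 and 3) 0.46 and -0.36, and Kcnk5 (3 and 3) 0.03 and -0.07. These 7 were left out by the filter.

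Among TRP channels, cation channels that respond to lipids, heat and redox state among other signals, the 2 probes with the smallest dye-switching p-values were both of the melastatin branch. Trpm3, a cation channel opened by the neurosteroid pregnenolone sulfate and by heat, had values on 6 arrays with mutant RNA in Cy5, whose lowest, median and highest were -0.67, -0.24 and 0.09. On the 8 arrays with mutant RNA in Cy3 they were 0.01, 0.09 and 0.30. The Cy3 arrays were all above 0 and all but 1 of the Cy5 arrays below it, and the groups overlapped through that array. The means were -0.26 ± 0.25 (SD, n = 6) and 0.14 ± 0.11 (SD, n = 8), and the dye-switching component was -0.20 ± 0.06 (SE), or 1.15-fold, with a 95% interval of -0.33 to -0.07, the same side on 13 of 14 arrays. Its unadjusted p of 0.00425 became 0.213 after Benjamini-Hochberg adjustment over all tested probes. Under robust regression, which gives extreme arrays less weight, the coefficient was -0.19 and the adjusted p 0.0237, and 204 probes (2.53%) passed in all. Without each array in turn the coefficient of Trpm3 ran from -0.23 to -0.16 and the adjusted p from 0.144 to 0.33. Its shared component was -0.06 ± 0.06 (SE).

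Trpm2, a calcium-permeable channel opened by ADP-ribose and oxidative stress, had a lowest, median and highest value of -0.87, -0.30 and 0.07 on 6 Cy5 arrays, and -0.57, 0.06 and 0.53 on 8 Cy3 arrays. The groups overlapped widely, with 9 of 14 arrays on the side of the coefficient. Means were -0.36 ± 0.32 (SD, n = 6) and 0.07 ± 0.34 (SD, n = 8), which gave a dye-switching component of -0.22 ± 0.09 (SE, 95% interval -0.41 to -0.03, adjusted p = 0.448) and a shared component of -0.15 ± 0.09 (SE, adjusted p = 0.602), which was -0.10 without array 9. Trpv2, a channel of heat and membrane stretch, had a dye-switching component of 0.10 ± 0.10 (SE), of opposite sign to the melastatin pair, and a shared component of -0.08 ± 0.10 (SE).

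Promoter windows are printed for Trpm3 and Trpm2, the leading genes of the dye-switching component, and for Gabbr1, the leading gene of the shared component among those with a window in the table used. Cacna1h and Kcnj14, ahead of Gabbr1 in that component, have no window there. They come from RefSeq on GRCm38.p6 and span 250 bases before to 50 after each annotated start, 5′ to 3′ on the gene's strand. Capitals mark the GC box GGGCGG, a match for Sp-type factors, or its reverse complement CCGCCC, and the TATA motif TATAAA or its reverse complement TTTATA. Trpm3 has 2 annotated starts, at chr19:22138796-22139095 and chr19:22447958-22448257 on the plus strand, with neither motif in either window. Trpm2 lies at chr10:77969823-77970122 on the minus strand, with 1 GC box and 1 TATA motif on the opposite strand. Gabbr1 lies at chr17:37045716-37046015 on the plus strand, with 3 GC boxes.
Trpm3 start 1: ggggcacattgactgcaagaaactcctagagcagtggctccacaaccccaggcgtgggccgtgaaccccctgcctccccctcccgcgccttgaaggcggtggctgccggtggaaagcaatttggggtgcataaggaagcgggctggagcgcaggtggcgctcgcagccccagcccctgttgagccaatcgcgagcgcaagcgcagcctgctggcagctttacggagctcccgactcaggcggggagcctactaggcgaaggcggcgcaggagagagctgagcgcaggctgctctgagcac
Trpm3 start 2: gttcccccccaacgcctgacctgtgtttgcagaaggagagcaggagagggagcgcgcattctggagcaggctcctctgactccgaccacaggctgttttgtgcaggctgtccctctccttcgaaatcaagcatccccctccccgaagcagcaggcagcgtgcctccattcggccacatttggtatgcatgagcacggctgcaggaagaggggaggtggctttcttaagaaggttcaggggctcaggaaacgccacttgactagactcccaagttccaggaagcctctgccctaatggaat
Trpm2: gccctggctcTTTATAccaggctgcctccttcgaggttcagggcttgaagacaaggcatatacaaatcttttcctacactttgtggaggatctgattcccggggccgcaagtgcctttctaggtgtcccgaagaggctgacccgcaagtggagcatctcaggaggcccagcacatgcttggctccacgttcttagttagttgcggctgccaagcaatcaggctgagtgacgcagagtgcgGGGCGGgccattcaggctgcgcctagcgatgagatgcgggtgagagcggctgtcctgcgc
Gabbr1: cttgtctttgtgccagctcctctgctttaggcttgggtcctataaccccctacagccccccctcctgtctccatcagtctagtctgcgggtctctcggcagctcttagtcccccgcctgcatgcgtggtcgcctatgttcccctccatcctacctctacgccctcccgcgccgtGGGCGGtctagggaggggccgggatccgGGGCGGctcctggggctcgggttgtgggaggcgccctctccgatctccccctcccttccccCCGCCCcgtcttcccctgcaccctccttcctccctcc
RefSeq windows were held for 24 of the 33 channel and receptor genes, 36 windows in all. A GC box on either strand was found in 21 of 36 (58.3%, against 35.7% of 32851 windows of all genes), and a TATA motif in 3 of 36 (8.33%, against 13.6%). The GC box holds only G and C and the TATA motif only A and T, so their matches cannot overlap. Median GC content was 59.7% against 52.7%, and the median number of CpG dinucleotides 12 against 7. Several starts of 1 gene count as separate windows, and the windows of all genes were not limited to genes that passed the array filter. A match is a description of the letters and not evidence of binding.

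Calcium channels supplied 2 of the 5 probes listed above for the shared component, from 7 calcium channel probes tested. Over all tested probes 9.49% had an unadjusted limma p under 0.05 in that component. Both probes are of pore-forming subunits, as are those of Cacna1a and Cacna1s, which were not among the 5. Cacna1h, the pore of a T-type calcium channel that opens at low voltage, had a lowest, median and highest value of -0.30, -0.21 and -0.02 on the 7 Cy5 arrays, all below 0. On the 8 Cy3 arrays they were -0.49, -0.39 and 0.34, and 13 of 15 arrays in all were below 0. The means, -0.19 ± 0.10 (SD, n = 7) and -0.22 ± 0.31 (SD, n = 8), gave a shared component of -0.21 ± 0.07 (SE, 95% interval -0.35 to -0.06, adjusted p = 0.386). Robust regression gave -0.25 with an adjusted p of 0.0271, and 107 probes (1.33%) passed in all. A further probe of Cacna1h had a value on 1 array only and gives no check.

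Cacna1f, the pore of a retinal calcium channel, had -0.71, -0.09 and 0.15 on the Cy5 arrays and -0.54, -0.06 and 0.23 on the Cy3 arrays as lowest, median and highest values. Both medians lay near 0, and 11 of 15 arrays were below it. The means were -0.24 ± 0.34 (SD, n = 7) and -0.15 ± 0.28 (SD, n = 8), and the shared component was -0.19 ± 0.08 (SE, adjusted p = 0.498). The other shared components of calcium channel probes, those of Cacna1s, Cacnb2, Cacna2d1, Cacna1a and Cacna2d2, reached up to 0.22. Cacna1a is the pore of P/Q-type channels that drive transmitter release, Cacnb2 a cytoplasmic beta subunit, and Cacna2d1 and Cacna2d2 are alpha-2-delta subunits, the family that gabapentin binds. In the dye-switching component Cacnb2 led this role with -0.12 ± 0.07 (SE, adjusted p = 0.612), and the other 6 probes lay between -0.05 and 0.07.

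Potassium channels were the largest role, with 10 probes of 9 genes. Kcnj14, an inward rectifier that helps to hold the resting potential, had the largest shared statistic among them. Its lowest, median and highest values were -0.13, 0.01 and 1.00 on 6 Cy5 arrays and -0.19, 0.52 and 0.72 on 7 Cy3 arrays. A pair of Cy5 arrays stood well above the other 4, which lay near 0, while all but 1 of the Cy3 arrays were above 0. The means were 0.26 ± 0.51 (SD, n = 6) and 0.40 ± 0.33 (SD, n = 7), and the shared component 0.33 ± 0.11 (SE, 95% interval 0.10 to 0.57, adjusted p = 0.396), on its side on 9 of 13 arrays.

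Kcnt1, a sodium-activated potassium channel, had 2 probes, each measured on all 15 arrays. In the dye-switching component probe 17723 gave 0.27 ± 0.15 (SE, adjusted p = 0.601) and probe 15987 gave 0.12 ± 0.09 (SE), both positive. In the shared component they gave 0.02 ± 0.15 and 0.15 ± 0.09 (SE). The coefficient of each probe lay within 2 standard errors of 0 in both components.

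The other 8 potassium channel probes lay between -0.15 and 0.10 in the dye-switching component, with adjusted p-values of 0.798 and above. They were Kcnc1, a fast delayed rectifier of fast-spiking neurons, Kcnq3, a subunit of the M-current, Kcnn4, a calcium-activated channel, Kcng1, a silent modifier subunit, Kcnmb4, the neuronal beta subunit of BK channels, the Kv4 partners Kcnip1 and Kcnip3, and Kcnj14. In the shared component all of these but Kcnj14 lay between -0.19 and 0.30. Kcnn4 had the widest interval of the role, -0.98 to 0.67 in the dye-switching and -0.52 to 1.13 in the shared component, with 1 value of 5.22, on array 11, beside 6 values of -0.04 and lower on the other Cy3 arrays. Without that array the mean of its Cy3 values went from 0.46 to -0.34.

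Sodium channels had 4 probes of 3 genes. Scn8a, the pore of the channel that starts action potentials at the axon initial segment, had 2 probes that gave -0.08 ± 0.10 and -0.02 ± 0.06 (SE) in the dye-switching component and 0.04 ± 0.10 and 0.09 ± 0.06 (SE) in the shared component, for probes 16808 and 9863. The 2 probes had the same sign in each component. The sign of probe 16808 turned without array 13 in the dye-switching component (to 0.02) and without array 9 in the shared component (to -0.0051), and that of probe 9863 turned without array 11 in the dye-switching component (to 0.0059). The beta subunit Scn3b led the role in the shared component with -0.17 ± 0.08 (SE, adjusted p = 0.516), on its side on 9 of 15 arrays. One value of -0.91, on array 4, was far from its other Cy3 values, and without it the Cy3 mean went from -0.16 to -0.05. In the dye-switching component Scn3b and the beta subunit Scn2b lay between -0.01 and 0.02.

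The chloride transport genes Clcn4 (probe 3824) and Clcn5, chloride and proton exchangers of endosomes, were measured on all 15 arrays. Clcn4 gave a dye-switching component of 0.07 ± 0.08 (SE) and Clcn5 a shared component of -0.16 ± 0.09 (SE, adjusted p = 0.593). Without array 10 the value of Clcn4 was 0.0072 and that of Clcn5 -0.08. Their other coefficients, 0.02 in each case, were small against standard errors of 0.09 for Clcn5 and 0.08 for Clcn4. The further Clcn4 probe 16345, just outside the filter with 5 and 3 arrays, did not match probe 3824. With the filter lowered to 2 arrays of each orientation, it had a dye-switching coefficient of -0.51 and a shared coefficient of -0.79.

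Among ionotropic glutamate receptors, Grik5, a kainate receptor subunit that needs a partner subunit to form a channel, had the largest dye-switching coefficient of the 3 with an unadjusted p under 0.05. Its values on 5 Cy5 arrays were 0.21, 0.82 and 1.83 (lowest, median and highest), all above 0. On 4 Cy3 arrays they were -1.07, 0.15 and 0.48, 2 above 0 and 2 below. The means were 0.85 ± 0.66 (SD, n = 5) and -0.07 ± 0.74 (SD, n = 4). The dye-switching component was 0.46 ± 0.20 (SE, 95% interval 0.02 to 0.91, adjusted p = 0.506), on its side on 7 of 9 arrays, and the shared component 0.39 ± 0.20 (SE, adjusted p = 0.553). It was among the 3 channel and receptor probes whose interval passed 1.5-fold, reaching 1.87-fold in the dye-switching component. Gria1, an AMPA receptor subunit central to hippocampal plasticity, was measured on all 15 arrays and gave -0.08 ± 0.07 and 0.10 ± 0.07 (SE).

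Both metabotropic glutamate receptors belong to the branches that inhibit adenylyl cyclase. Grm2 gave a dye-switching component of 0.20 ± 0.15 (SE, adjusted p = 0.716) on 11 arrays, which fell to 0.12 without array 12, and Grm4 a shared component of -0.07 ± 0.06 (SE, adjusted p = 0.711) on 15, which was -0.05 without array 13.

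Gabbr1, a subunit of the metabotropic GABA-B receptor, was the only GABA receptor gene among the probes taken by these letters. Its lowest, median and highest values were -0.36, -0.16 and 0.04 on the 7 Cy5 arrays and -0.54, -0.04 and 0.03 on the 8 Cy3 arrays. No array exceeded 0.04, and 11 of 15 were below 0. The means of -0.18 ± 0.16 (SD, n = 7) and -0.16 ± 0.23 (SD, n = 8) nearly coincided, so that the dye-switching component was -0.01 ± 0.06 (SE) and the shared component -0.17 ± 0.06 (SE, 95% interval -0.29 to -0.04, adjusted p = 0.418).

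**Figure D4:**
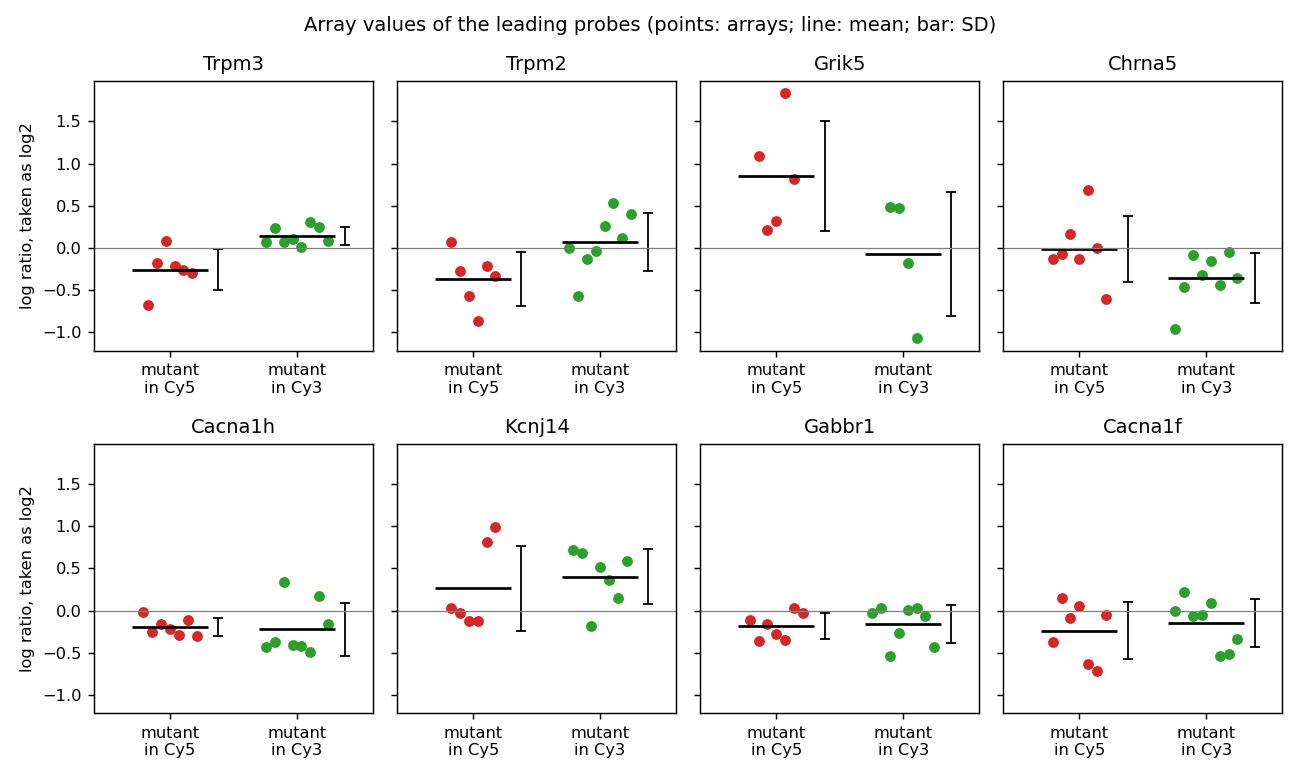
Log ratios (taken as log2, vertical axis) of each array for the 4 probes with the largest statistics in the dye-switching component (top row) and in the shared component (bottom row), by the dye of the mutant RNA; points are arrays, horizontal lines means and bars 1 SD either way. Trpm3 has all its Cy3 arrays above 0 and all but 1 of its Cy5 arrays below it, and Cacna1h has 13 of 15 arrays below 0. The orientations overlap in every panel, which bears on the dye-switching component only.

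Acetylcholine receptor probes were all of nicotinic subunits. Chrna5, an accessory subunit of neuronal nicotinic receptors, had -0.61, -0.07 and 0.68 on the 7 Cy5 arrays and -0.96, -0.34 and -0.05 on the 8 Cy3 arrays as lowest, median and highest values. The Cy3 arrays were all below 0, and the Cy5 arrays lay on both sides. The means were -0.01 ± 0.39 (SD, n = 7) and -0.36 ± 0.29 (SD, n = 8). The dye-switching component was 0.17 ± 0.09 (SE, 95% interval -0.01 to 0.36, adjusted p = 0.555), with 11 of 15 arrays on its side, and the shared component -0.18 ± 0.09 (SE, adjusted p = 0.524), with 12 of 15. Without array 3, the lowest Cy3 value, the Cy3 mean went from -0.36 to -0.27. The dye-switching component was 0.11 without array 9 and 0.10 without arrays 9 and 10.

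Chrna9, a subunit best known from cochlear hair cells, had 2 probes with 9 arrays each. Probe 5792 had a residual SD of 1.71, the largest of the 36 channel and receptor probes. It held a value of -4.61 on array 3, and its intervals were the widest of the channel and receptor probes, -0.53 to 1.56 in the dye-switching and -1.35 to 0.74 in the shared component. Probe 6652, which the platform annotates under an older name, gave 0.13 ± 0.17 and 0.01 ± 0.17 (SE), against 0.51 ± 0.47 and -0.30 ± 0.47 (SE) for probe 5792. The signs were alike in the dye-switching component and opposite in the shared component, well inside the errors. Chrnb2, the beta subunit of the most common brain nicotinic receptor, gave -0.01 ± 0.08 and 0.06 ± 0.08 (SE) on 15 arrays.

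Drd2, the dopamine D2 receptor of striatal neurons and dopamine cells, was measured on 13 arrays and gave -0.01 ± 0.10 in the dye-switching component and -0.05 ± 0.10 (SE) in the shared component. Its intervals of -0.22 to 0.20 and -0.26 to 0.15 lay within 1.2-fold either way.

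The 5 probes that share only the letters had a higher median residual SD than the channels and receptors, 0.697 against 0.329. Single probes of the 5 ran from 0.136 to 2.38. Htra1 gave 0.60 ± 0.67 and 0.64 ± 0.67 (SE) in the dye-switching and shared components, and 1 of its 8 values was 6.22, on array 5. Grina, also on 8 arrays, gave 0.20 ± 0.35 and -0.39 ± 0.35 (SE). The 2 probes of Glrx2 had opposite signs in the dye-switching component, -0.29 ± 0.17 for probe 10096 and 0.21 ± 0.15 for probe 11937 (SE), and were both negative in the shared component, at -0.35 ± 0.17 and -0.13 ± 0.15 (SE). Without array 10 the dye-switching component of probe 10096 was -0.19, and without array 8 the components of probe 11937 were 0.07 and 0.01. Kcnq1ot1 had the smallest residual SD of the 41 probes, 0.136, with components of -0.04 ± 0.05 and -0.10 ± 0.05 (SE, adjusted p = 0.832 and 0.538), the first of which was -0.02 without array 10.

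Other genes of transmission showed no call. Among 144 listed genes, 57 were on the array and 25 genes with 30 probes were tested. In limma 0 of 30 passed the adjusted threshold in either component, where 0.645% (dye-switching) and 0% (shared) of all tested probes passed. An unadjusted p under 0.05 was found for 2 of 30 in each component, against 9.57% and 9.49% of all tested probes. Other channels and receptors, 5 probes of 57 listed genes, lay between -0.11 and 0.11 in the dye-switching component and between -0.02 and 0.18 in the shared component. Receptor scaffolds and partners such as the Dlg, Shank and Homer families, 17 probes of 54 listed genes, lay between -0.16 and 0.41 and between -0.30 and 0.14. Genes of transmitter synthesis and transport, 8 probes of 33 listed genes, lay between -0.05 and 0.46 and between -0.07 and 0.20. The median over the 30 probes was 0.01 in the dye-switching and 0.0003 in the shared component, close to the medians over all tested probes.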

How the data were processed

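For every array the authors deposited a column of log ratios, used here as log2 values without further scaling. Base 2 was assumed, since the largest absolute value, 12.33, exceeds 11.09, the natural log of the largest ratio of a 16-bit scanner. Normalization, spot filter and ratio direction are not given in the sources used here. Array medians between -0.0062 and 0.016 show that the columns had been centred before deposit. Of 20205 probes, 11723 had 1 symbol in the platform's annotation, 806 several and 7676 none. Symbols were updated through RefSeq (GRCm38.p6), 11590 by gene identifier.

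Probes with values on at least 4 arrays of each orientation were fitted in limma 3.58.1 (R 4.3.3) with a dye term, eBayes and Benjamini-Hochberg adjustment over all 8058 tested probes. The fit was tested on simulated data with normal noise. Such noise lacks the extreme single values reported here, so the test does not show how the fit performs with them. Errors of coefficients are standard errors. The number of arrays limits the precision, with a median standard error of 0.09. No 2 arrays held identical values.

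Members and lists were chosen with earlier results of these data known. Kcnq1ot1 was set apart from the potassium channels after the annotation was read. Coefficients are named for any probe past the adjusted threshold, the leading probe of each role in each component, further probes with an unadjusted p under 0.05 and 1 sign on most arrays, genes with several probes, and probes that share only the letters. Coefficients given for other members, such as Gria1, Chrnb2 and Trpv2, complete their roles and were added after their values were seen. Alternatives changed the centring, scale, array filter, array weights, regression, extreme values, variance model, dye term, probe averaging and block, and left out arrays.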

Additional observations from a re-analysis of the deposited data

Results flagged for a closer look

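In 9 of 82 sets of array values, each set being 1 probe in 1 dye orientation, a single array stood apart from the others by Dixon's criterion. Under normal noise about 1 of 20 sets would meet it. The share over all tested probes is not given here, so the count cannot be read as particular to these probes. The 9 values fell on 9 different arrays.

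With mutant RNA in Cy5, Htra1 had 6.22 on array 5, where the nearest other value was 0.225, and the mean went from 1.24 to -0.42 without it. Kcnq1ot1 had -0.414 on array 10, with the nearest other value at -0.146. Kcnip1 had -0.648 on array 9, next to 0.0319, and its mean went from 0.04 to 0.15 without that array. Scn8a probe 16808 had -1.06 on array 13, next to -0.123, and its mean went from -0.04 to 0.16 without it.

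With mutant RNA in Cy3, Kcnn4 had 5.22 on array 11, next to -0.0362. Chrna5 had -0.963 on array 3, next to -0.461, and all its other Cy3 values were below 0 as well. Glrx2 probe 11937 had -2.32 on array 8, next to -0.438, and its mean went from -0.34 to -0.06 without it. Chrnb2 had 0.866 on array 7, next to 0.228, and its mean went from 0.07 to -0.04 without it. Scn3b had -0.908 on array 4, next to -0.273.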

How the results depend on the processing

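In each component, 26 of 27 alternatives called 0 of the probes, and robust regression called 1, Trpm3 in the dye-switching and Cacna1h in the shared component. The cause was not tested. Unadjusted p-values under 0.05 numbered 1 to 7 and 3 to 9. Over all alternatives the adjusted p of Trpm3 ran from 0.0237 to 0.33 and that of Cacna1h from 0.0271 to 0.545. With runs of 4 arrays in accession order as a random block the fitted correlation was 0.0215. Leaving out each array in turn called 0 probes in both components and moved the medians over the probes from -0.01 to 0.02 (dye-switching) and from -0.05 to -0.0007 (shared).

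The coefficients below turned sign, and the cause was not tested. In the dye-switching component, Clcn4 was -0.01411 with array weights and -0.01561 without arrays 9 and 10. Drd2 was 0.01783 with arrays scaled to 1 spread, 0.02649 with array weights, 0.03035 by robust regression and 0.05947 without arrays 9 and 10. Htra1 was -0.1024 by robust regression, Grina -0.001178 with array weights, and Glrx2 -0.01394 with its 2 probes, which had opposite signs, averaged. In the shared component, Drd2 was 0.01382, Scn8a probe 16808 -0.05185 and Kcnt1 probe 17723 -0.01844 without arrays 9 and 10. Robust regression gave Htra1 -0.05903, Chrna9 probe 5792 0.1662, Chrna9 probe 6652 -0.02832 and Glrx2 probe 11937 0.0198. Values limited to between -2 and 2 gave Chrna9 probe 5792 0.02188. Arrays scaled to 1 spread gave Chrna9 probe 6652 -0.0156 and Kcnt1 probe 17723 -0.0227. Without a dye term these were -0.003822 and -7.127e-05. Chrna9 probe 6652 was -0.01866 with array weights, and both probes of Chrna9 averaged gave -0.2132.

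Leaving out 1 array turned 21 further values. The dye-switching ranges were -0.05297 to 0.05688 (Drd2), -0.03947 to 0.003391 (Gabbr1), -0.1209 to 0.02162 (Scn8a probe 16808) and -0.04739 to 0.005863 (Scn8a probe 9863). The shared ranges were -0.129 to 0.1024 (Chrna9 probe 6652), -0.1005 to 0.01123 (Drd2), -0.167 to 0.01314 (Glrx2 probe 11937), -0.03843 to 0.1002 (Kcnt1 probe 17723) and -0.005119 to 0.1374 (Scn8a probe 16808). Htra1 and Grina, on 8 arrays, leave the test when an array that measured them is removed. Values of dim spots were not analysed here, since no intensities were used.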
